A study of Mus musculus with 15 samples.

Results

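The clustered protocadherin genes were taken as all genes whose mouse symbols follow the patterns Pcdha and Pcdhac, Pcdhb, or Pcdhga, Pcdhgb and Pcdhgc with a number, after the Entrez identifiers of the count table had been matched to symbols. The rule found 58 genes among the 26150 identifiers of the table: 14 in the alpha cluster, 22 in the beta cluster and 22 in the gamma cluster. The gamma cluster held 12 A-type, 7 B-type and 3 C-type genes. With Pcdhac1 and Pcdhac2 of the alpha cluster, the C-type genes numbered 5.

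Clustered protocadherins are cadherin-like cell surface proteins that bind copies of themselves on neighbouring membranes, and they are best known for giving neurons different surface identities. In the alpha and gamma clusters each variable exon has its own promoter and is spliced to constant exons that the whole cluster shares, whereas each beta gene is an exon of its own with no constant part. An individual neuron uses a small, seemingly random set of the alternate promoters, a choice that depends on DNA methylation, CTCF and cohesin, while the C-type promoters are used in a way more fixed by cell type. The gamma proteins are known for neuronal survival, dendrite self-avoidance and dendrite arborisation, and the alpha proteins for axon tiling and projection.

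The libraries were polyadenylated RNA from C57BL/6 mouse embryos in which Phf6, an X-linked gene of a chromatin-associated protein mutated in Börjeson-Forssman-Lehmann syndrome, was intact or deleted. Developing cortex at E15.5 came from 3 Phf6 +/Y control and 5 Phf6 -/Y foetuses with germline loss of exons 4 and 5. Cortical neurons of E16.5 foetuses, cultured for 24 h, came from 3 controls of the genotype Phf6 +/Y NesCre T/+ and 4 foetuses of the genotype Phf6 lox/Y NesCre T/+. The Nes-cre transgene, which drives Cre recombinase in the neural precursors of the neural tube, was carried by all neuron donors, the controls included, and by no cortex group. The labels named litters 1 to 3 for the cortex and litters 4 to 7 for the neurons, and litter 7 held a deleted foetus without a control. Embryonic day, transgene, dissociation, culture and litter changed together with the tissue, so their parts in any difference between cortex and neurons cannot be told apart.

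Library totals ranged from 16858007 to 31157700 counts, and the 58 protocadherins together took 13471 to 25939 counts of a library. Phf6 itself, counted over all its exons including those not deleted, stood at 149 to 191 CPM (the usual unit of counts scaled to library size) in control cortex, 42.4 to 55.2 in Phf6 -/Y cortex, 228 to 259 in control neurons and 59.9 to 85.8 in deleted neurons. All 15 libraries therefore lay on the side of their labels. Markers of cortical projection neurons were abundant in every library, with summed levels of 5017 to 7048 CPM in cortex and 9344 to 10584 CPM in neurons.

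All 3 clusters lie on the plus strand of chromosome 18. In RefSeq coordinates of GRCm38 the alpha genes span chr18:36930285-37188897, the beta genes chr18:37264998-37521419 and the gamma genes chr18:37661775-37841873. The constant exons amount to 2860 bases of each alpha gene and 2116 bases of each gamma gene, which is 54.5% and 45.8% of the median exonic length in the count table. A read on a constant exon belongs to every gene of its cluster. Pcdha4 nevertheless had between 0 and 18 counts in a library where Pcdhac2, which shares those exons, had between 427 and 727, so constant-exon reads were not credited to each member and the counts mainly follow the variable exons. Levels below are therefore given as CPM per kilobase of the exonic bases a gene does not share. Poly(A) selection favours 3' ends, and a variable exon of the alpha or gamma cluster lies far from its 3' end while a beta exon does not, so levels are compared within clusters. Antisense genes of the GENCODE annotation overlap the unshared exon of 15 members, Pcdhga11, Pcdhga12 and Pcdhgc3 among them, and the strand setting of the counting was not given in the sources used here.

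In the gamma cluster a single gene stood far above each of the others. Pcdhgc3, the C-type gamma gene whose cytoplasmic part has been tied to Wnt signalling, had the highest level of the gamma cluster in each of the 4 groups. Its level was 72.1 ± 3.3 CPM per kb in control cortex (SD, n = 3), 69.2 ± 7.8 in Phf6 -/Y cortex (n = 5), 97.3 ± 1.2 in control neurons (n = 3) and 105 ± 8.0 in deleted neurons (n = 4). The next gamma genes by mean level were Pcdhga11, at 12.7 ± 1.1 CPM per kb in control cortex and 15.2 ± 1.6 in control neurons, and Pcdhgb6, at 13.1 ± 1.5 and 15.2 ± 0.82. Pcdhgc3 never overlapped them, whereas Pcdhga11 and Pcdhgb6 overlapped one another in both control groups. At the low end of the cluster stood Pcdhgc5, at 1.38 ± 0.18 CPM per kb in control cortex, and Pcdhgb8, annotated as a transcribed pseudogene, at 1.16 ± 0.23.

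Pcdhgc3 took 37.1 ± 0.82% of the gamma CPM in control cortex and 39.3 ± 0.76% in control neurons. In Phf6 -/Y cortex its share ranged from 31.4% to 36.2%, below the 36.5% to 38.0% of the 3 control libraries. In deleted neurons the share ranged from 35.9% to 40.1% and spanned the 38.6% to 40.1% of the controls. No test was made of these shares, which move when any other gamma gene moves.

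In the alpha cluster the leading gene was Pcdhac2, the C-type gene known for the tiling of serotonergic axons, at 7.04 ± 0.61 CPM per kb in control cortex and 9.19 ± 1.4 in control neurons. Pcdha12 followed at 3.37 ± 0.27 and 5.77 ± 0.72 CPM per kb. The other C-type alpha gene, Pcdhac1, was low at 1.01 ± 0.23 and 0.96 ± 0.28. The alpha genes with low levels included Pcdha1, at 0.27 ± 0.11 CPM per kb in control cortex and 6 to 22 counts in a library, Pcdha8, at 0.21 ± 0.19, and Pcdha4, at 0.11 ± 0.090. Across Pcdha1 to Pcdha12 the level tended to rise along the cluster towards the constant exons, with a Spearman correlation of position and mean level of 0.643 across 12 genes. The same correlation was 0.342 across the 22 beta genes, 0.105 across 12 A-type and -0.107 across 7 B-type gamma genes. The genes share their libraries and are no replicates, so the correlations are a description only.

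Beta genes lay closer together. Pcdhb17 and Pcdhb7 had the highest means over the 4 groups, with 2.89 ± 0.22 and 2.90 ± 0.35 CPM per kb in control cortex and 6.01 ± 0.45 and 4.83 ± 0.23 in control neurons, where Pcdhb20 lay between them at 5.16 ± 0.47. Pcdhb13 was low at 0.34 ± 0.10 and 0.80 ± 0.25 CPM per kb, and Pcdhb1 was at 0 in all 7 neuron libraries and at 0 to 2 counts in the cortex libraries. With the genes of each cluster ordered by level there were 55 neighbouring pairs. The ranges of 46 overlapped in control cortex and those of 43 in control neurons, so ranges did not separate most neighbours within a cluster. The ranges ignore that both genes of a pair were measured in the same libraries, and neighbours were not compared library by library.

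The evenness of each cluster was expressed as its effective number of members, the exponential of the Shannon entropy of the shares, which equals the number of genes when all are expressed alike. In control cortex it was 9.91 ± 0.37 for the 14 alpha genes, 16.9 ± 0.31 for the 22 beta genes and 11.9 ± 0.27 for the 22 gamma genes. Leaving Pcdhgc3 out raised the gamma value to 17.9 ± 0.10 of the remaining genes. In control neurons the values were 9.83 ± 0.13, 17.3 ± 0.36 and 11.2 ± 0.29. These are bulk samples, so a cluster spread over many genes does not show how many genes an individual cell used, and a lower level of a gene cannot be told apart from fewer cells that express it.

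**Figure D1:**
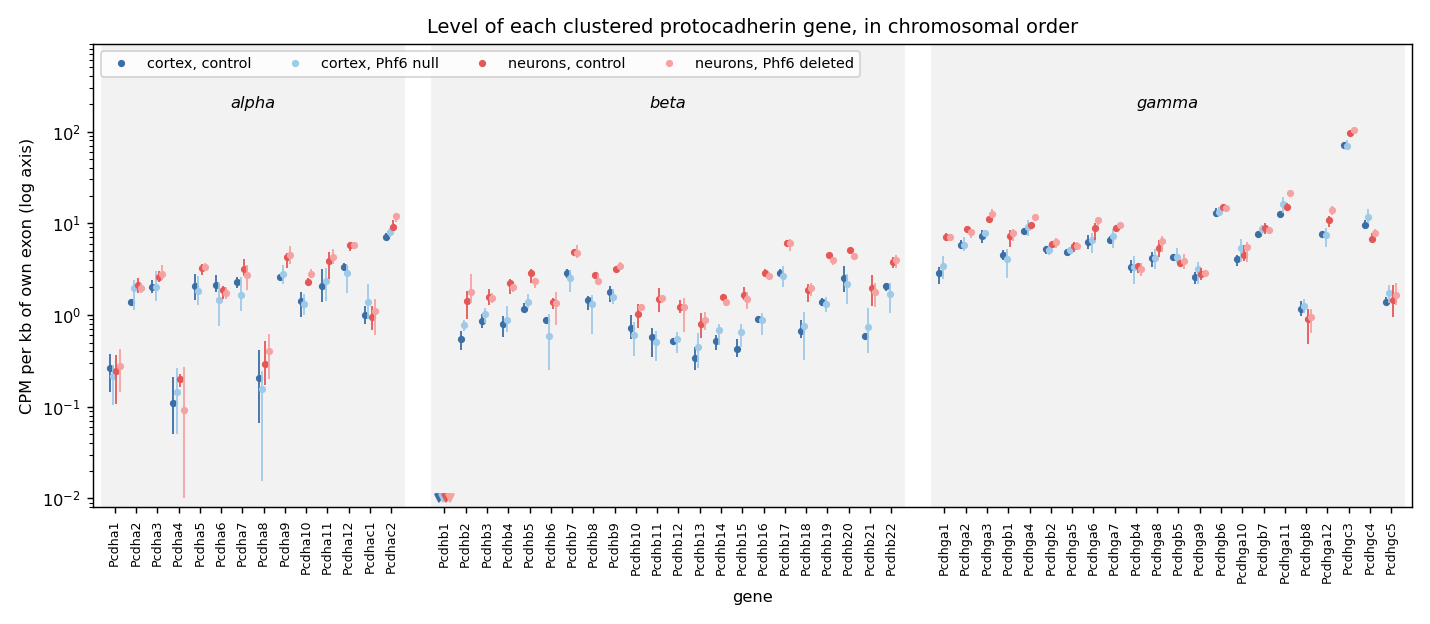
Level of each of the 58 genes in chromosomal order, as CPM per kilobase of unshared exon on a log axis. Points are group means, lines run from the lowest to the highest library of a group, and triangles at the bottom mark means under 0.01 (Pcdhb1). Pcdhgc3 stood above all other gamma genes in the 4 groups, and the neuron groups lay above the cortex groups for nearly all beta genes.

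Cultured neurons differed from cortex mainly in the beta cluster. Neurons were compared with cortex first in the controls and then in the Phf6-deleted samples, which are separate libraries from the same litters except for 1 deleted neuron library of litter 7, with edgeR's quasi-likelihood test across all genes and an adjusted p below 0.05. In the controls 33 of the 56 protocadherins tested were higher in neurons and 1 was lower, while 24.7% of all 14320 genes tested were higher and 26.4% lower. In the Phf6-deleted samples 41 of 55 were higher and 1 lower, against 28.0% and 31.1% of 14416 genes. The median log2 fold change of the members was 0.63 in controls and 0.77 in deleted samples, where the medians of all genes tested were -0.03 and -0.03. Of the 33 genes called higher in controls 32 were also called in deleted samples. That is 97.0% of the first list and 78.0% of the second. The same overlap was not computed for all genes, so it cannot be called particular to the protocadherins. The gene called higher in the controls alone was Pcdha2, with log2 fold changes of 0.63 ± 0.24 (SE) in controls and 0.00 ± 0.22 in deleted samples. The deleted comparison has more libraries, and no test of a difference between the lists was made.

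All 21 beta genes tested had positive differences in both comparisons, as did 47.8% of all genes in controls and 47.7% in deleted samples. Of the beta genes, 19 were called higher in controls, with Pcdhb6 and Pcdhb10 the exceptions, and 21 in deleted samples. The median beta difference was 1.22 on the log2 scale in controls and 1.17 in deleted samples. In 18 of the 21, all 7 neuron libraries lay above all 8 cortex libraries, a separation that 17.3% of all 15001 genes showed. For the whole family the count was 25 of 56, and it rested mostly on the beta genes, with 2 of 14 alpha and 5 of 21 gamma genes.

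Pcdhb15 showed the largest difference of the cluster in the controls. Its levels were 1.53, 1.07 and 0.967 CPM in the control cortex libraries and 4.22, 4.11 and 5.66 CPM in the control neuron libraries. The values did not overlap, and the log2 fold change was 1.95 ± 0.32 (SE, adjusted p = 0.000208, edgeR). In the deleted samples the same gene ran from 1.26 to 2.22 CPM in cortex and from 3.27 to 5.02 in neurons, a log2 fold change of 1.18 ± 0.24 (adjusted p = 0.000875).

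Pcdhb19 was more abundant and better measured. Control cortex gave 5.94, 7.25 and 6.49 CPM, and control neurons gave 21.6, 19.1 and 22.4 CPM. Neurons were thus about 3.20-fold higher by the fit, with a log2 fold change of 1.68 ± 0.15 (adjusted p = 1.87e-06). In deleted samples the log2 fold change was 1.56 ± 0.13 (adjusted p = 8.52e-07). Pcdhb21, the third by size, rose by 1.73 ± 0.33 on the log2 scale in controls (adjusted p = 0.000652) and by 1.24 ± 0.33 in deleted samples (adjusted p = 0.00582). Pcdhb17, which had the highest mean level per kb among beta genes over the 4 groups, rose by 1.06 ± 0.14 and 1.17 ± 0.15.

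**Figure D2:**
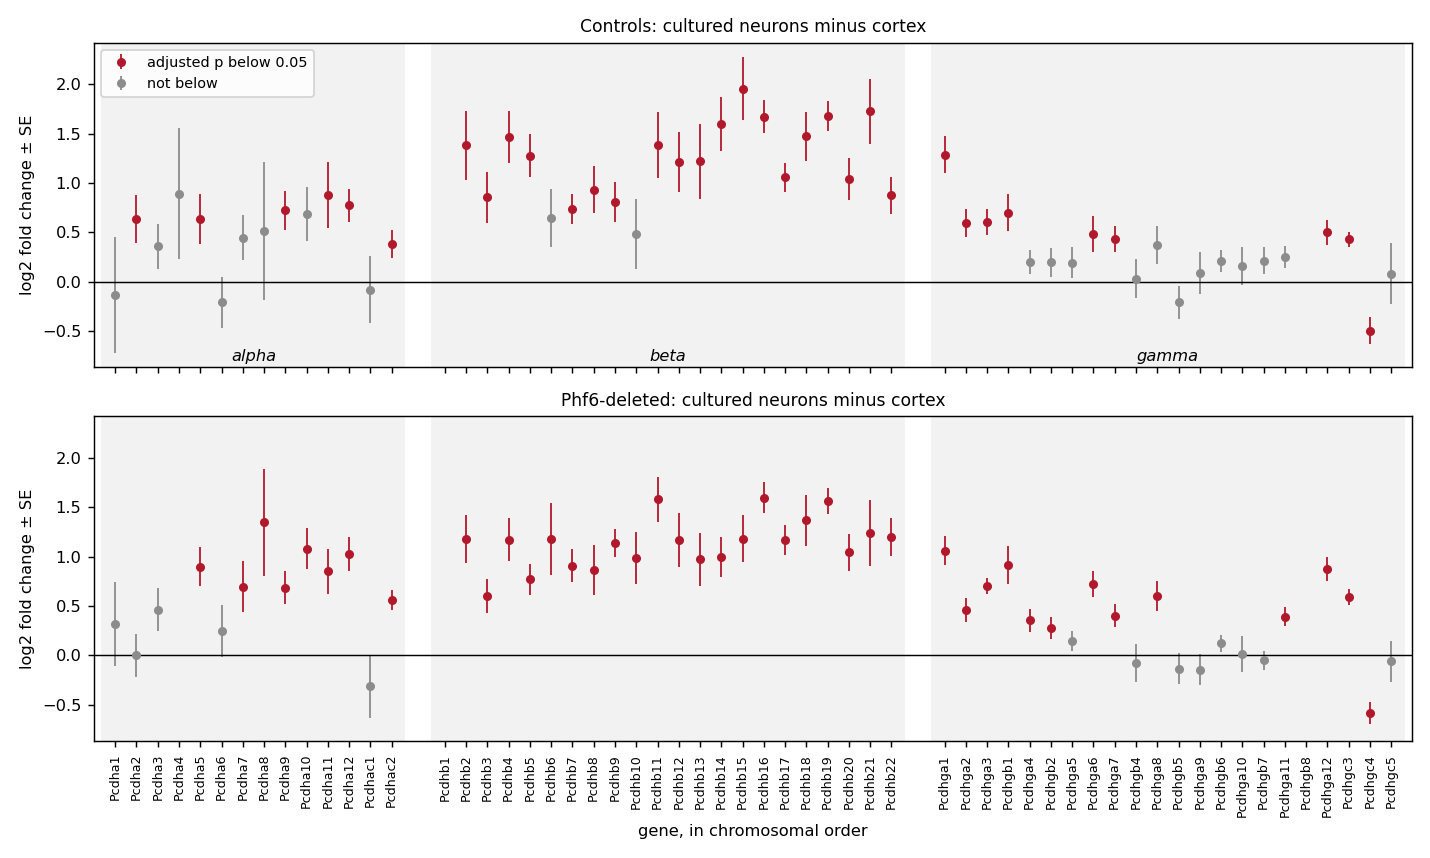
log2 fold change between cultured neurons and cortex for each gene in chromosomal order, in controls (upper panel) and in Phf6-deleted samples (lower panel), with standard errors. Red points have an adjusted p below 0.05, and genes without a point were not tested. The beta genes lay above 0 throughout, several gamma genes towards either end of the array were red while most in its middle were grey, and Pcdhgc4 was the only red point below 0 in either panel.

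The gamma cluster was mixed. In controls 8 of 21 genes tested were higher and 1 lower, with a median log2 fold change of 0.21, and in deleted samples 12 were higher and 1 lower, with a median of 0.36. Genes at the 5' end of the array were among those called. Pcdhga1 stood at 5.32, 7.60 and 8.06 CPM in control cortex and at 15.4, 17.0 and 18.8 CPM in control neurons, without overlap. Its log2 fold change was 1.29 ± 0.18 in controls (adjusted p = 7.19e-05) and 1.06 ± 0.15 in deleted samples (adjusted p = 5.72e-05). Pcdhgb1 and Pcdhga3 rose by 0.70 ± 0.18 and 0.60 ± 0.14 in controls and by 0.92 ± 0.19 and 0.70 ± 0.083 in deleted samples. In the middle of the array, from Pcdhgb4 to Pcdhgb7, none of the 7 genes but Pcdhga8 was called in either comparison, and Pcdhga8 was called in deleted samples only (0.60 ± 0.15 there and 0.37 ± 0.19 in controls). The limits of this stretch were set after the values were seen, and they get no test.

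The C-type genes went different ways. Pcdhgc3 was measured at 178, 195 and 184 CPM in control cortex and at 247, 252 and 252 CPM in control neurons. The groups lay apart, with a log2 fold change of 0.43 ± 0.075 in controls (adjusted p = 0.000365) and 0.59 ± 0.083 in deleted samples (adjusted p = 5.26e-05). Pcdhgc4, a gamma gene known for its role in neuronal survival, went the other way, from 24.9, 31.4 and 27.0 CPM in control cortex to 22.6, 18.5 and 18.1 CPM in control neurons. All 7 neuron libraries lay below all 8 cortex libraries. Pcdhgc4 fell by 0.50 on the log2 scale (SE 0.14, adjusted p = 0.00805) in controls and by 0.58 (SE 0.11, adjusted p = 0.000536) in deleted samples, and it was called lower in each alternative processing tried. Pcdhac1 and Pcdhgc5 had differences of -0.08 ± 0.34 and 0.08 ± 0.31 in controls, well within their errors.

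Pcdhac2 stood at 17.0, 19.8 and 17.2 CPM in control cortex and at 21.2, 21.7 and 27.7 CPM in control neurons. The groups did not overlap, but the log2 fold change of 0.38 ± 0.14 (adjusted p = 0.0367) was small, and the call was lost with library totals in place of TMM scaling (adjusted p = 0.168) and when control cortex replicate 1 or 3 or control neuron replicate 3 was left out (adjusted p = 0.109, 0.0977 and 0.156). In deleted samples the difference was 0.56 ± 0.10 (adjusted p = 0.000332).

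In the alpha cluster 6 of 14 genes were called higher in controls and 8 of 13 in deleted samples, none lower. The largest called differences in controls were those of Pcdha11, Pcdha12 and Pcdha9. Pcdha12 rose from 7.60, 8.79 and 7.78 CPM to 11.8, 14.7 and 15.0 CPM, a log2 fold change of 0.77 ± 0.17 (adjusted p = 0.00163), and all neuron libraries lay above all cortex libraries. Pcdha9 rose by 0.72 ± 0.20 in controls (adjusted p = 0.00825) and 0.69 ± 0.17 in deleted samples. Pcdha11 rose by 0.88 ± 0.33 in controls, where its cortex values of 3.35, 7.56 and 4.11 CPM overlapped its neuron values of 10.2, 5.86 and 11.5 CPM. Its adjusted p of 0.0455 became 0.0848 with library totals, 0.0788 with the replicate number as a block, and between 0.111 and 0.151 without control cortex replicate 1 or 3 or control neuron replicate 1 or 3. In deleted samples it was 0.85 ± 0.23 (adjusted p = 0.0058).

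Summed over each cluster, the beta genes gave 73.6 to 90.4 CPM in control cortex and 180 to 206 CPM in control neurons. The alpha genes gave 60.6 to 78.8 and 86.4 to 113 CPM, and the gamma genes without Pcdhgc3 gave 290 to 335 and 376 to 402 CPM. In all 3 sums the control groups were apart. The genotypes overlapped in the 3 cortex sums, and in neurons the gamma sum without Pcdhgc3 was 376 to 402 CPM in controls and 414 to 456 CPM in deleted libraries.

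**Figure D3:**
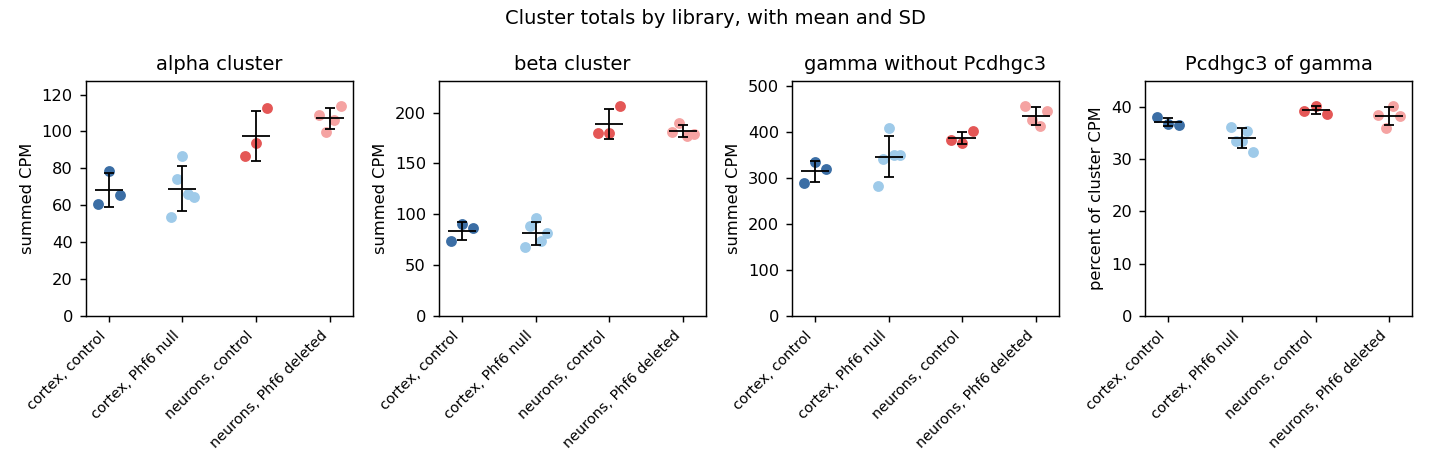
Summed CPM of the alpha cluster, the beta cluster and the gamma cluster without Pcdhgc3, and the share of gamma CPM taken by Pcdhgc3, with a point for each of the 15 libraries and bars for mean and SD. The beta sums were 67.9 to 96.2 CPM in the 8 cortex libraries and 177 to 206 CPM in the 7 neuron libraries.

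The cell composition of the samples changed with the tissue. All 8 radial glia and progenitor markers and all 6 markers of cycling cells were lower in neurons than in cortex in both comparisons. Their summed levels were 1704 to 2071 CPM and 1051 to 1480 CPM in cortex and 455 to 681 CPM and 273 to 473 CPM in neurons. Of the 10 projection neuron markers 7 were higher and 3 lower in controls, and all 6 interneuron markers fell, from 582 to 761 CPM in cortex to 152 to 243 CPM in neurons. Endothelial markers fell from 124 to 270 CPM to 3.70 to 7.32 CPM. The part of these shifts in the protocadherin differences was not tested. Library totals in place of TMM scaling moved the median log2 fold change of all genes from -0.03 to -0.17 in controls and from -0.03 to -0.19 in deleted samples, and 27 and 36 protocadherins were then called higher. Relative to the median of all genes the members' median was 0.66 in controls and 0.80 in deleted samples under either scaling.

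Deletion of Phf6 went with a called difference in a single protocadherin, Pcdhga11 in cultured neurons. The genotypes were compared within each tissue with litter as a term. In cultured neurons 1 of 56 members was called, where 0.273% of all 13909 genes tested were called, and 5 had an unadjusted p below 0.05, as did 10.3% of all genes. In cortex 0 of 56 were called by edgeR, where 0.386% of 14750 genes were, and 4 had an unadjusted p below 0.05, as did 10.5% of all genes. DESeq2 and limma-trend likewise called 0 in cortex, with 4 and 5 at an unadjusted p below 0.05, though DESeq2 gave 3 of the 56 no adjusted p. In both tissues the share of members at an unadjusted p below 0.05 lay under that of all genes. The median log2 fold change of the members was -0.01 in cortex, with 27 of 56 above 0. It was 0.05 in neurons, with 35 of 56 above 0. Among all genes tested 49.4% were above 0 in cortex and 50.3% in neurons.

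The gene called was Pcdhga11, an A-type gamma gene at chr18:37755773-37841873. In litters 4, 5 and 6 the control neurons gave 39.7, 35.2 and 43.4 CPM and the deleted neurons of the same litters gave 56.3, 56.1 and 53.5 CPM. The deleted foetus of litter 7 gave 58.1 CPM. All deleted libraries lay above all controls, and within litters the log2 difference was 0.30 to 0.67. The neuron genotypes were also fully apart for Pcdhga3, Pcdhga4, Pcdhga12 and Pcdha10, which were not called. The share of all genes with such a separation was not computed. For Pcdhga11 the fitted log2 fold change was 0.49 ± 0.087 (SE, adjusted p = 0.0239), a 1.40-fold difference. The call depended on the design: the adjusted p was 0.293 without the litter term and 0.171 with the replicate number as a block. It was 0.297 without control replicate 2 and 0.253 without deleted replicate 3. Those fits called fewer genes of any kind than the 27 higher and 11 lower of the main fit. They called 0 and 1 without litter, 3 and 2 with the replicate block, 12 and 4 without control replicate 2, and 15 and 6 without deleted replicate 3. The log2 fold change of Pcdhga11 stayed between 0.40 and 0.58 in all 16 alternatives. Its share of gamma CPM was 5.62% to 6.63% in control neurons and 7.42% to 8.47% in deleted neurons.

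In cortex the same gene was at 35.6, 33.6 and 30.1 CPM in the controls of litters 1, 2 and 3. The Phf6 -/Y foetuses of litter 1 gave 44.6 and 44.5 CPM, those of litter 2 gave 39.7 and 50.1 CPM, and that of litter 3 gave 33.7 CPM. Each null library was above the control of its own litter, by 0.16 to 0.58 on the log2 scale, although the lowest null value lay under the highest control. Pcdhac2 and Pcdhb2 were likewise above the litter's control in 5 of 5 cortex pairs and 3 of 3 neuron pairs. For Pcdhga11 the log2 fold change of 0.31 ± 0.094 did not pass the test (adjusted p = 0.232, unadjusted p = 0.00543). The interaction of genotype and tissue was 0.17 ± 0.13 for Pcdhga11 (adjusted p = 0.954), so no difference between the tissues was shown.

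Some markers of 2 other cell types were called between genotypes, where 0.386% of all genes were called in cortex and 0.273% in neurons. Of the 4 Cajal-Retzius cell markers, Lhx5 and Calb2 were called higher in Phf6 -/Y cortex (0.77 ± 0.14 and 0.56 ± 0.11) and Reln in deleted neurons (0.81 ± 0.061). The list summed to 270 to 301 CPM in control cortex, 253 to 408 CPM in null cortex, 101 to 146 CPM in control neurons and 171 to 354 CPM in deleted neurons. Of the 4 choroid plexus markers Ttr alone was high enough to test in neurons and was called higher there, while the list summed to 1.28 to 3.23 CPM in controls and 2.91 to 23.0 CPM in deleted neurons. In cortex 0 of the 4 choroid plexus markers were called, their median log2 fold change was -1.57, and their sum ran from 1.66 to 464 CPM between libraries. The part of either marker list in the Pcdhga11 difference was not tested.

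**Figure D4:**
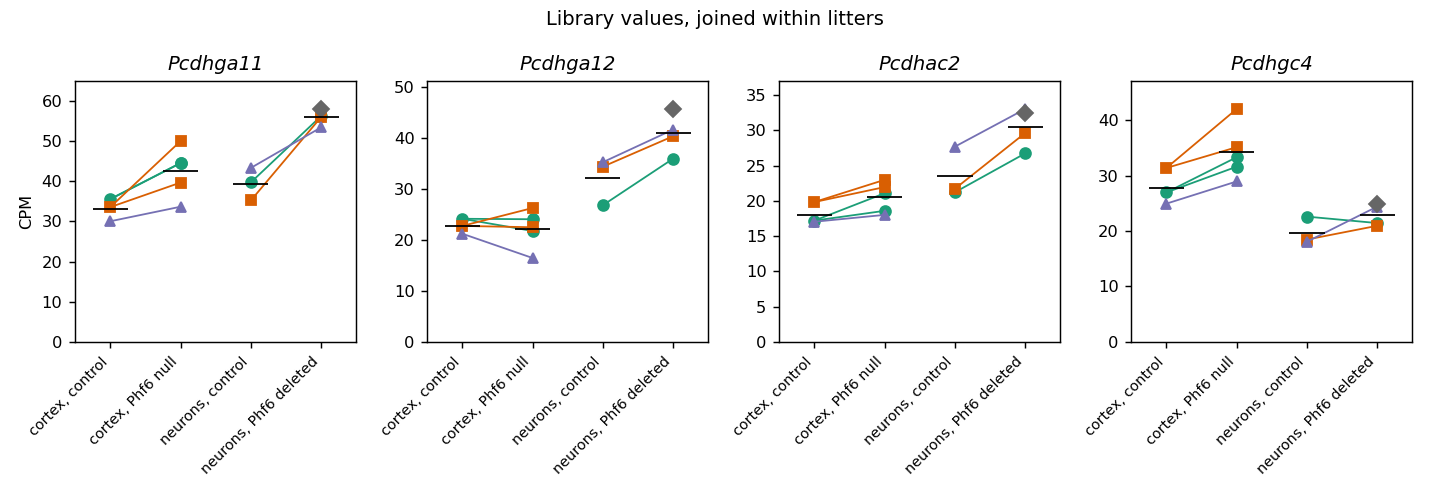
CPM of Pcdhga11, Pcdhga12, Pcdhac2 and Pcdhgc4 in each of the 15 libraries by group. Lines join deleted libraries to the control of their litter (circles, squares and triangles are litters 1 to 3 in cortex and 4 to 6 in neurons, the grey diamond is litter 7), and black bars are group means. For Pcdhga11 and Pcdhac2 all 8 lines rise, and for Pcdhga12 the neuron lines rise while 4 of the 5 cortex lines do not.

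The other members with an unadjusted p below 0.05 in neurons were all higher in deleted samples, and none passed the adjusted threshold. Pcdhac2 gave 21.2, 21.7 and 27.7 CPM in controls of litters 4 to 6 and 26.8, 29.7 and 33.1 CPM in the deleted neurons of these litters, with 32.5 CPM in litter 7. Each pair rose, although the groups overlapped, and the log2 fold change was 0.34 ± 0.098 (adjusted p = 0.195). Pcdhga12, the next A-type gene along the array from Pcdhga11, gave 26.8, 34.4 and 35.3 CPM in controls and 36.0, 40.4, 41.7 and 45.8 CPM in deleted neurons (0.30 ± 0.088, adjusted p = 0.206). Pcdhga6 and Pcdhga4 had differences of 0.30 ± 0.11 (adjusted p = 0.314) and 0.28 ± 0.10 (adjusted p = 0.338), and were higher in 3 of 3 litters. The genes were picked by p from the same values, so agreement of the litters is no further support. Pcdha10 and Pcdhga3, which were not picked, were also higher in 3 of 3. Of the 12 A-type gamma genes 11 had differences above 0 in neurons and 8 in cortex, with medians of 0.16 and 0.08. Among all genes tested 50.3% were above 0 in neurons and 49.4% in cortex. Genes of an array share their libraries and are no replicates, so these counts get no test. Of the 21 beta genes tested, 9 had differences above 0 in neurons and 9 in cortex.

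In cortex the 3 other members with an unadjusted p below 0.05 were Pcdhgc4, Pcdha6 and Pcdha7. Pcdhgc4 was 0.26 ± 0.090 higher (adjusted p = 0.315), at 24.9 to 31.4 CPM in controls and 28.9 to 42.0 CPM in null cortex, and higher than the litter's control in 5 of 5 null libraries. Pcdha6 had a log2 fold change of -0.70 ± 0.25 (adjusted p = 0.319), at 4.60, 6.49 and 4.23 CPM in controls and 1.81 to 5.30 CPM in null cortex, lower in 5 of 5. Pcdha7 had a log2 fold change of -0.58 ± 0.23 (adjusted p = 0.389), lower in 4 of 5. In neurons the same 3 genes gave 0.17 ± 0.12, -0.20 ± 0.23 and -0.23 ± 0.21. Pcdhgc3, the most abundant of the gamma genes, differed by -0.08 ± 0.079 in cortex and 0.07 ± 0.058 in neurons. The 5 cortex pairs rest on 3 control libraries, and Pcdhgc4, Pcdha6 and Pcdha7 were picked by p from the same values. Their pair counts are therefore no further support. Pcdha5, Pcdha12 and Pcdhb7, which were not picked, were also lower in 5 of 5 pairs. The share of all genes that agree in this way was not computed.

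Tested directly, the genotype effect differed between tissues for 0 of 56 members by edgeR, where 0.0133% of 15001 genes passed. An unadjusted p below 0.05 was found for 2 by edgeR, where 5.19% of all genes had one, for 1 by DESeq2 and for 2 by limma-trend. The 2 were Pcdhga12, with a difference of effects (neurons minus cortex) of 0.39 ± 0.15 (adjusted p = 0.894), and Pcdhb15, with -0.91 ± 0.42 (adjusted p = 0.954). Pcdhgb8 was tested only when pseudogenes were kept, and gave 0.07 ± 0.24 in cortex and -0.01 ± 0.31 in neurons.

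**Figure D5:**
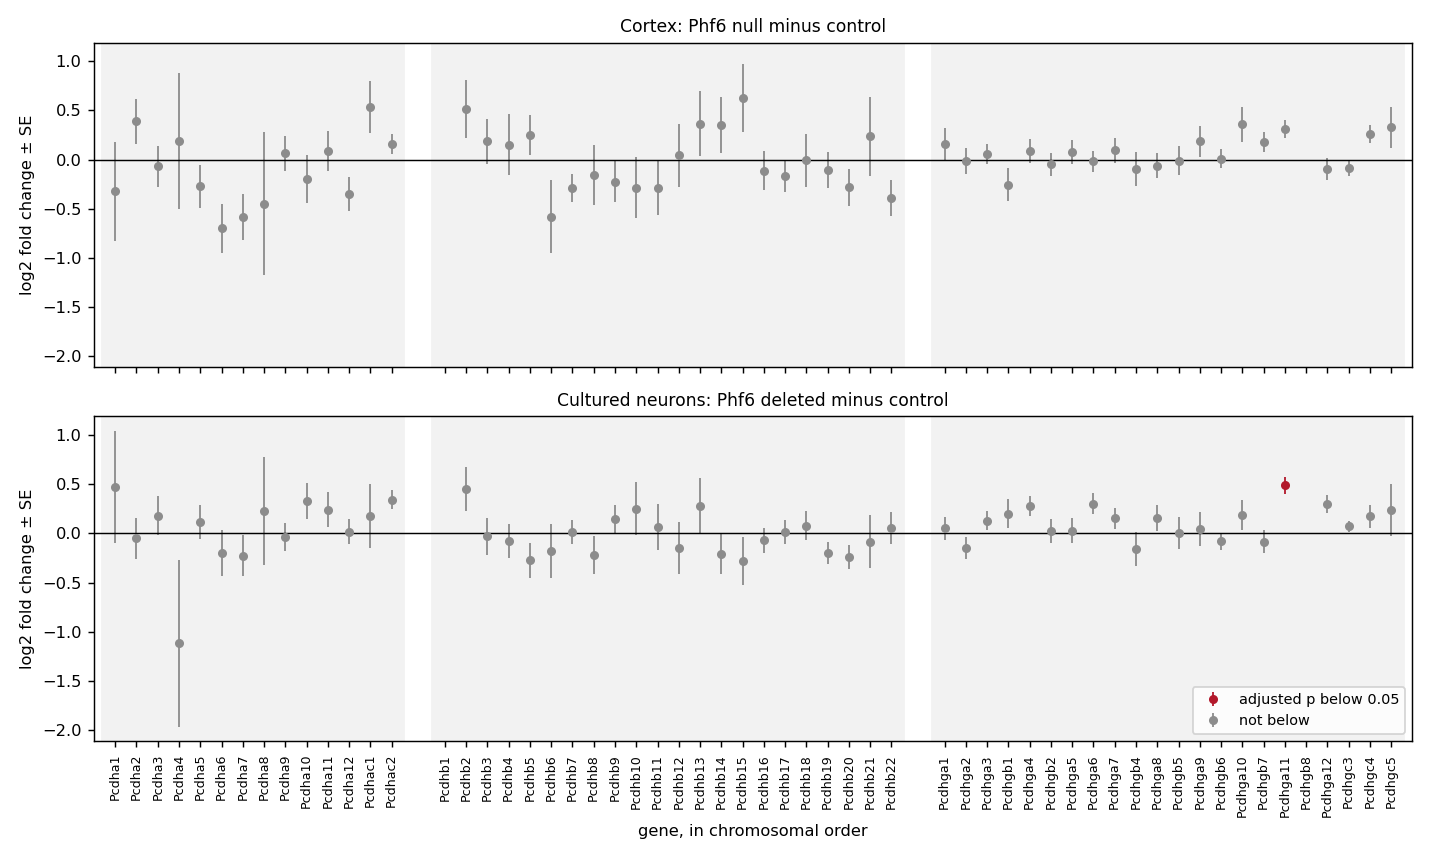
log2 fold change of Phf6-deleted samples against controls for each gene in chromosomal order, in cortex (upper panel) and in cultured neurons (lower panel), with standard errors from the fit with litter. Pcdhga11 in neurons was the only point with an adjusted p below 0.05. The wide bars at Pcdha1, Pcdha4 and Pcdha8 belong to genes with few counts.

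Genes that act on the clusters or with their proteins were read from lists. None of the 11 CTCF and cohesin genes, the 15 genes of DNA methylation and silencing, the 7 kinase partners, the 10 genes of the WAVE actin regulatory complex, the 6 cleavage and Wnt partners, the 12 classical cadherins and catenins or the 13 neighbouring genes was called in either genotype comparison. The 12 non-clustered protocadherins also held 0 called genes. An unadjusted p below 0.05 (edgeR) was found for 6 of the 11 tested in neurons and 2 of 12 in cortex. Among all genes the shares were 10.3% and 10.5%. Only 0.273% of all genes were called in neurons and 0.386% in cortex, so 0 calls in lists this short say little. Between control tissues 1 of the 11 CTCF and cohesin genes was lower in neurons and 1 higher, against 26.4% and 24.7% of all genes. They were Rad21, a cohesin subunit (log2 fold change -0.36 ± 0.081), and Wapl, which releases cohesin (0.33 ± 0.097). In deleted samples 1 was lower and 2 were higher, against 31.1% and 28.0% of all genes. Ctcf gave 0.15 ± 0.075 in controls (adjusted p = 0.114) and 0.15 ± 0.058 in deleted samples (adjusted p = 0.0397).

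Of the DNA methylation and silencing genes 8 of 15 were lower and 2 higher in control neurons, and these counts stand beside 26.4% lower and 24.7% higher among all genes tested. Dnmt3b, the methyltransferase that marks the variable exon promoters in the early embryo, gave -0.66 ± 0.23 (adjusted p = 0.0303), Dnmt3a -0.87 ± 0.081, and Uhrf1, which guides maintenance methylation and is high in cycling cells, -2.24 ± 0.26. Of the WAVE complex, which binds the cytoplasmic part of many protocadherins, 7 of 10 genes were higher in control neurons and Wasf2 was lower. Of the 13 genes next to the clusters 1 was higher and 1 lower in controls and 4 were higher and 1 lower in deleted samples. The 2 listed genes that lie between the beta and gamma arrays were not called in controls (Taf7 -0.05 ± 0.13 and Slc25a2 0.63 ± 0.55). All 12 non-clustered protocadherins were called, 5 higher and 7 lower.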

How the data were processed

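Stranded polyadenylated RNA libraries from cortex and cultured neurons were sequenced by the authors as 81 bp paired-end reads. As the methods of the study state, reads were aligned to mm10 with Rsubread and assigned to genes with featureCounts. The deposited table holds raw counts per Entrez gene for 15 libraries, and the per-sample files held the same values. How reads on shared exons, near-identical stretches of neighbouring members or antisense genes were assigned is not given in the sources used here. The 1029 rows without an identifier took 0.349% to 0.605% of the reads of a library. They are included in the library totals given above and were left out of the tests and their library sizes. The study's gene filter removed pseudogenes, ribosomal RNA genes and predicted genes, and 875 identifiers that matched no symbol were also removed. After these steps 23132 genes remained, 57 members among them. Pcdhb1 was below the count filter in every comparison, and Pcdha4 in the comparison of tissues in deleted samples.

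Counts were tested with edgeR 4.0.16 (robust quasi-likelihood F test, TMM scaling, filterByExpr) in R 4.3.3, with Benjamini-Hochberg adjustment over all genes tested. Genotypes were compared within each tissue with litter as a fixed term, tissues without it, and the interaction in 1 fit of all 15 libraries. CPM values use TMM library sizes over all libraries. A called gene has an adjusted p below 0.05. The standard error of a log2 fold change was computed as its absolute value divided by the square root of the F statistic of its test. DESeq2 1.42.0 and limma-trend (limma 3.58.1) were alternatives, and the test was checked on simulated data. Litters come from the labels, and the deviations of same-litter libraries from their group means correlated across genes at -0.09 to 0.47 in cortex and 0.18 to 0.35 in neurons, ranges that overlap those of libraries of different litters (-0.43 to 0.11 and -0.34 to 0.29).

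The members given with values were the C-type genes, those with an unadjusted p below 0.05 in a genotype comparison, the called genes with the 3 largest differences in each direction and cluster between control tissues, and the 2 highest and 2 lowest levels of each cluster. The members and all gene lists were chosen with earlier results of these data known. Separate foetuses are the replicates. Counting intervals were not computed, since the spread between libraries covers counting error. No sequence is printed.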

Additional observations from a re-analysis of the deposited data

Results flagged for a closer look

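Library values of the members named in the report, the cluster sums and the effective numbers were examined in the groups of 4 and 5 libraries for a value far from the others. Of 60 such groups 1 passed Dixon's limit, where chance alone flags about 1 in 20. In deleted neurons replicate 2, Pcdhga6 was at 22.8 CPM, below the 26.9 to 27.7 CPM of the other deleted libraries. This library is of litter 4, whose control was also the lowest control at 16.1 CPM, against 23.4 and 24.3 CPM in the other controls, and Dixon's limit took no account of litter. No member had an interaction of genotype and tissue that passed the adjusted threshold.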

How the results depend on the processing

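The results that turned on the processing were few. The neuron genotype count of 1 called member became 0 without the litter term and 0 with the replicate number as a block instead. It ranged from 0 to 1 when each library was left out in turn. Over all 13909 genes tested the main fit called 27 higher and 11 lower. The fit without the litter term called 0 and 1, and that with the replicate block called 3 and 2. Litter, which the labels give, is the pairing of the libraries, and replicate numbers follow it only in part. The cause of the lost call was not tested. Counts in the cortex genotype and the interaction stayed at 0 in all alternatives. With DESeq2, however, 3 of 56 members in cortex and 15 of 56 in the interaction had no adjusted p and could not be called. Over all genes the main cortex fit called 47 higher and 10 lower, against 0 and 1 without the litter term and 153 and 42 with DESeq2. The interaction called 1 and 1 in the main fit and 2 and 10 with DESeq2. Between tissues the members called higher ranged from 27 to 34 in controls and from 36 to 41 in deleted samples over the alternatives with all libraries, and from 26 to 33 and from 36 to 41 when each library was left out. With library totals, 33.0% of all calls in controls and 30.6% in deleted samples were higher in neurons, against 48.4% and 47.4% with TMM. The replicate block across tissues gave 32 and 37 higher.

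C-type genes with differences near 0 changed sign when libraries were left out: Pcdhac1 ranged from -0.13 to 0.51 in the neuron genotype and from -0.30 to 0.11 between control tissues, and Pcdhgc5 from -0.042 to 0.61, from -0.29 to 0.33, and from -0.22 to 0.048 between deleted tissues. With library totals Pcdhgc5 was -0.058 between control tissues. The cause of these sign changes was not tested. Over whole exonic length Pcdhgc3 had 39.6 and Pcdhac2 3.33 CPM per kb in control cortex, since the constant exons then enter the length. Few reads limited Pcdha1, Pcdha4 and Pcdha8 most, and Pcdha4 had standard errors of 0.69 and 0.85 in the cortex and neuron genotype comparisons.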
